A study of Mus musculus with 10 samples.

Results

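Small proteoglycans and matricellular proteins of the extracellular matrix were examined in mouse gastrocnemius, a calf muscle, after deletion of the myostatin gene in adulthood. The 10 genes were Bgn, Dcn, Lum, Sparc, Postn, Tnc, Fn1, Fbn1, Fbln1 and Fbln2, and their probe sets (groups of array probes read out as a single value) were taken by gene symbol alone. Of these genes 9 had at least 1 probe set under their own symbol, out of 18194 genes named on the array, with 19 of the 45101 probe sets. No probe set carried the symbol Fbn1 in the annotation used, and this gene is not analysed here. A mean log2 intensity of at least 4 over all arrays was required for testing. It was met by 14 of the 19 probe sets, which covered all 9 of these genes.

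The Floxed_Mstn group held 5 male C57BL/6 mice with floxed myostatin genes, and the WT_Mstn group held 5 male mice of the same background with normal myostatin genes. Every mouse carried the CAGG-CreER transgene, was given 8 tamoxifen injections from 4 months of age and was 7.5 months old per the labels, so the Cre transgene and tamoxifen were common to both groups. The CAGG promoter is broadly active, so Cre was not restricted to muscle fibres. No probe set carried the symbol Mstn, and the deletion therefore has no check in the transcript itself. Values are log2 of the deposited intensity, and a difference is Floxed_Mstn minus WT_Mstn.

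Decorin (Dcn), biglycan (Bgn) and lumican (Lum) are small leucine-rich proteoglycans, secreted proteins that bind collagen fibrils and set their spacing, and decorin is also known to bind myostatin and transforming growth factor beta. SPARC, periostin (Postn) and tenascin-C (Tnc) are matricellular proteins, which modulate how cells attach to and signal through the matrix more than they build it. Fibronectin (Fn1) forms the fibrils on which other matrix proteins assemble, while fibulins 1 and 2 bind fibronectin, elastic fibres and basement membranes. In muscle these genes are expressed mainly by fibroblasts and other cells of the connective tissue.

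Mean values of all 9 genes were lower in Floxed_Mstn muscle, and none passed the threshold (limma, adjusted p under 0.05 over 21154 probe sets). In whole tissue fewer cells of a type and less RNA per cell cannot be told apart. The median difference was -0.31 (log2), against -0.0049 over the 10704 genes tested. A lower mean was also found for 51.5% of all genes tested. The threshold was passed by 0.131% of all genes in either direction. At unadjusted p under 0.05, 4 of the 9 genes had lower values in Floxed_Mstn (Sparc, Postn, Tnc and Fn1), as did 5.02% of all genes. The groups did not overlap for 2 of the 9 genes, Sparc and Postn, both lower in Floxed_Mstn, as for 1.31% of all genes. The 9 genes varied together from mouse to mouse, so these counts do not stand for 9 independent observations.

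**Figure D1:**
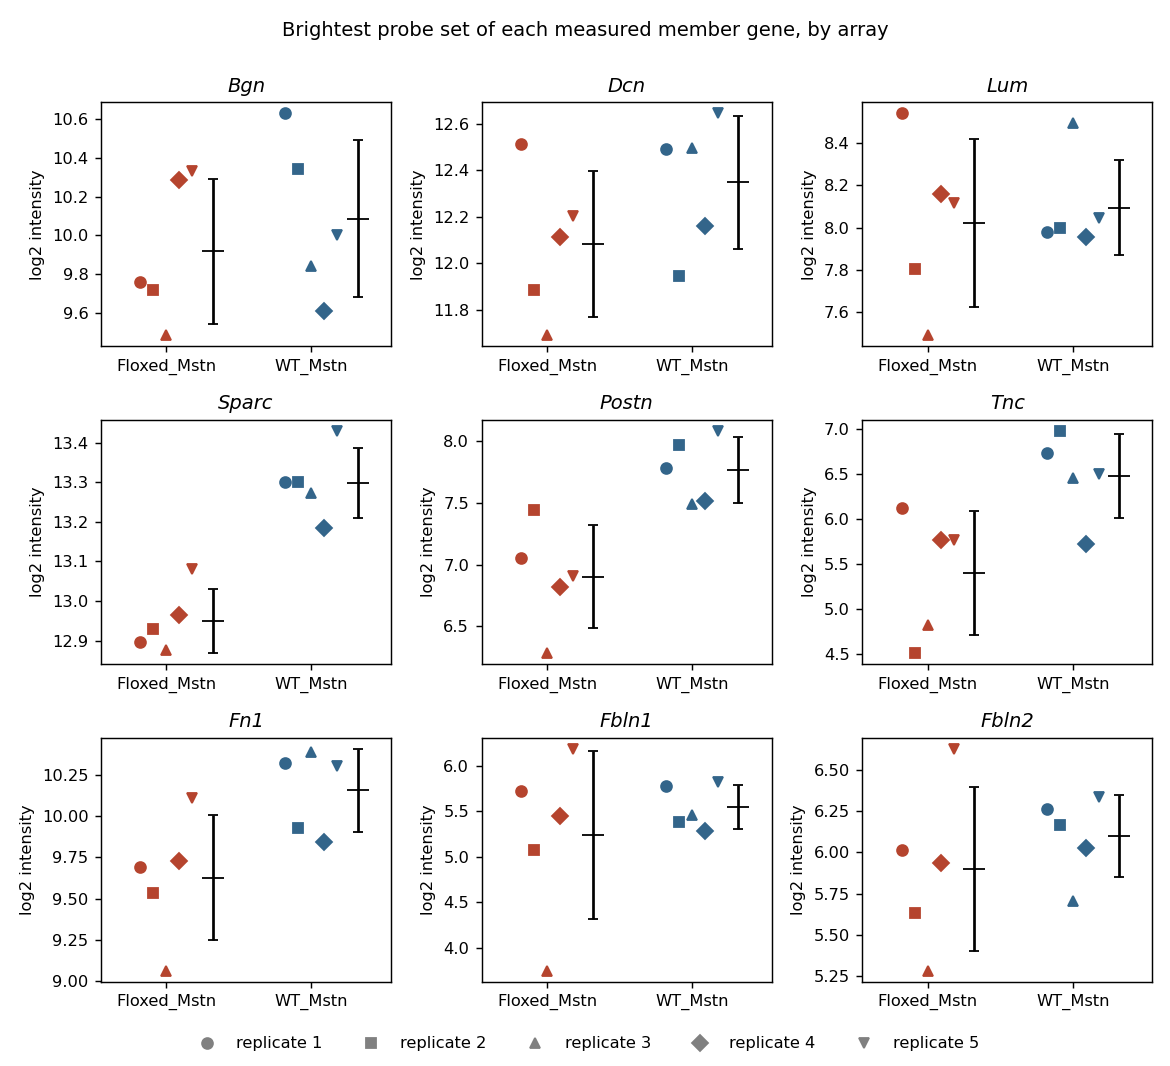
Log2 intensity (vertical axis, a separate scale in each panel) of the brightest probe set of each measured gene in 5 Floxed_Mstn arrays (red, left) and 5 WT_Mstn arrays (blue, right). Points are arrays, marker shape gives the replicate number, and the black bar gives the mean and SD; the groups are apart for Sparc and Postn and overlap for the other genes.

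SPARC, a collagen-binding glycoprotein of remodelling tissue, had the lowest p of the 9 genes. On its brightest probe set, 1448392_at, the Floxed_Mstn arrays read 12.90, 12.93, 12.88, 12.96 and 13.08, against 13.30, 13.30, 13.27, 13.18 and 13.43 in WT_Mstn arrays (replicates 1 to 5). Every Floxed_Mstn value lay below every WT_Mstn value. The means were 12.95 ± 0.08 in Floxed_Mstn and 13.30 ± 0.09 in WT_Mstn (SD, n = 5 each). The difference was -0.35 ± 0.07 (SE, 95% interval -0.50 to -0.19), or 1.27-fold lower, with an unadjusted limma p of 0.000592 and an adjusted p of 0.164. The adjusted p ranged from 0.0201 to 0.398 over the alternatives, and the lowest, from a variance model with trend and robust fit, was the only setting that took a member past the threshold.

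A second Sparc probe set, 1416589_at, read 10.73, 10.76, 10.56, 10.96 and 11.21 in Floxed_Mstn, against 11.59, 11.51, 11.22, 11.29 and 11.67 in WT_Mstn. The groups were again apart, though Floxed_Mstn replicate 5 and WT_Mstn replicate 3 nearly met. This difference was -0.61 ± 0.14 (SE), or 1.53-fold lower, with a limma adjusted p of 0.231. Deviations of the 2 probe sets from their group means followed each other over the 10 arrays (Pearson's r = 0.874, a description).

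Periostin, a matrix protein that supports collagen crosslinking and is made in growing and injured tissue, was represented by 1423606_at alone. It read 7.06, 7.45, 6.28, 6.82 and 6.91 in Floxed_Mstn, against 7.78, 7.97, 7.49, 7.52 and 8.08 in WT_Mstn. The groups were separate, with Floxed_Mstn replicate 2 just under WT_Mstn replicate 3 and Floxed_Mstn replicate 3 the lowest of all. The means were 6.90 ± 0.42 in Floxed_Mstn and 7.77 ± 0.27 in WT_Mstn (SD, n = 5 each). The difference was -0.87 ± 0.21 (SE, 95% interval -1.33 to -0.40), or 1.82-fold lower, with an unadjusted limma p of 0.00193 and an adjusted p of 0.280. It was -0.71 without Floxed_Mstn replicate 3 and -1.001 without Floxed_Mstn replicate 2.

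Tenascin-C, a hexameric glycoprotein found in muscle mostly at tendon junctions and in repair, had the widest difference in means of the 9 genes. Probe set 1416342_at read 6.12, 4.52, 4.83, 5.77 and 5.77 in Floxed_Mstn, against 6.73, 6.98, 6.46, 5.73 and 6.50 in WT_Mstn. WT_Mstn replicate 4 fell inside the Floxed_Mstn range, and the other WT_Mstn values lay above every Floxed_Mstn value. The means were 5.40 ± 0.69 in Floxed_Mstn and 6.48 ± 0.47 in WT_Mstn (SD, n = 5 each). The difference was -1.08 ± 0.34 (SE, 95% interval -1.84 to -0.32), or 2.11-fold lower, with an unadjusted limma p of 0.0101 and an adjusted p of 0.469.

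The promoters of Sparc, Postn and Tnc are shown because these were the matricellular genes and the members with the lowest p values. The sequences are from RefSeq on GRCm38.p6 and run 5′ to 3′ in the direction of the gene, from 250 bases before to 50 bases after an annotated start; 7 of the 10 symbols matched, with 10 promoters in all. Capitals mark matches on either strand to a short Smad-binding box or to a TATA-like box, and matches to the TATA-like box can overlap each other. The positions are chr11:55420031-55420330 on the minus strand for Sparc, chr3:54360857-54361156 on the plus strand for Postn and chr4:64046887-64047186 on the minus strand for Tnc. Postn and Tnc each have a further annotated start, whose sequence is not shown.
Sparc: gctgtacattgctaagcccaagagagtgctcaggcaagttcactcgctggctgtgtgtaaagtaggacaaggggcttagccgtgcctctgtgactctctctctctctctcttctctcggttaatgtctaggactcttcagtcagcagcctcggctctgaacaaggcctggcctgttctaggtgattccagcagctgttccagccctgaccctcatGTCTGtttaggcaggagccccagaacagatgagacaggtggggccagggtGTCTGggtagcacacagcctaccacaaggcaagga
Postn: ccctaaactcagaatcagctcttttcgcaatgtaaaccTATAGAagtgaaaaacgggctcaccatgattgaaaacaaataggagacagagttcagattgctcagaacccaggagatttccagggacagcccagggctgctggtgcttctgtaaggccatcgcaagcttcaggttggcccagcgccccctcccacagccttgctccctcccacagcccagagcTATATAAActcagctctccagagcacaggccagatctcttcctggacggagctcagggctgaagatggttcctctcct
Tnc: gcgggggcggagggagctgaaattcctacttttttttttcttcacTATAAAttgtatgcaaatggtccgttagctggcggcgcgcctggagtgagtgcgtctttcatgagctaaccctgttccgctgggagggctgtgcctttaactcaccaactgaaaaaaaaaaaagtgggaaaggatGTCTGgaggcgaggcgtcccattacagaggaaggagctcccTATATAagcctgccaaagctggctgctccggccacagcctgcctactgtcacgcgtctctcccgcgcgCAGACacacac

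The Smad box was searched as CAGAC on both strands, letters found in 49.6% of all 32851 promoters of the same 300 bases. In the Sparc promoter shown it matched on the opposite strand beginning 35 bases before and 15 bases after the start. In the Tnc promoter it began 70 bases before and 39 bases after the start, and the Postn promoter shown did not hold it. At the further starts, not shown, it began 191 bases before that of Postn and 9 bases after that of Tnc.

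The TATA-like box was searched as TATANA, letters chosen after the sequences were seen and found in 24.7% of all promoters. In the Postn promoter it matched in an overlapping run beginning 28 bases before the start, and once more 212 bases before it. In the Tnc promoter it began 29 and 205 bases before the start, and the Sparc promoter shown did not hold it. Of the further starts, that of Tnc had it beginning 126 bases before and that of Postn did not hold it.

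Neither the AP-1 letters TGANTCA, in 7.81% of all promoters, nor a TEAD motif was found in the 3 windows. The TEAD motif was searched as GGAATG, which 14.7% of all promoters hold. A match is a description of the letters and not a measured binding site.

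Decorin, the most studied small proteoglycan of muscle and a collagen-binding inhibitor of transforming growth factor beta, had 2 kept probe sets. The brightest, 1449368_at, read 12.51, 11.88, 11.69, 12.11 and 12.20 in Floxed_Mstn, against 12.49, 11.95, 12.50, 12.16 and 12.64 in WT_Mstn. The groups overlapped over most of their range. The difference was -0.27 ± 0.18 (SE, 95% interval -0.66 to 0.13), with a limma adjusted p of 0.819, and lay between -0.17 without Floxed_Mstn replicate 3 and -0.37 without Floxed_Mstn replicate 1. The other, 1441506_at, averaged 7.76 ± 0.24 in Floxed_Mstn and 8.12 ± 0.35 in WT_Mstn (SD, n = 5 each), a difference of -0.36 (limma adjusted p = 0.714). Deviations of these probe sets from their group means did not follow each other (Pearson's r = -0.21 over 10 arrays, a description), so they disagree on which mice were high.

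Biglycan, which is close to decorin in structure and binds the dystrophin-associated complex of the fibre membrane, had 3 kept probe sets. The brightest, 1448323_a_at, read 9.76, 9.72, 9.49, 10.29 and 10.33 in Floxed_Mstn, against 10.63, 10.34, 9.84, 9.61 and 10.004 in WT_Mstn. Both groups held high and low arrays. The difference was -0.17 ± 0.23 (SE, 95% interval -0.68 to 0.34; limma adjusted p = 0.958), and lay between -0.03 without WT_Mstn replicate 1 and -0.29 without WT_Mstn replicate 4. The other probe sets gave -0.15 and -0.20, and the 3 varied together with Pearson's r between 0.944 and 0.950 over 10 arrays. The interval of the brightest leaves room for a value of up to 1.60-fold lower.

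Lumican, a keratan sulphate proteoglycan whose gene lies next to Dcn in the RefSeq gene order, had 1 probe set, 1423607_at. It read 8.54, 7.80, 7.49, 8.16 and 8.12 in Floxed_Mstn, against 7.98, 8.00, 8.50, 7.96 and 8.05 in WT_Mstn. The Floxed_Mstn values extended both above and below all WT_Mstn values. The difference was -0.07 ± 0.19 (SE, 95% interval -0.50 to 0.35; limma adjusted p = 0.986), and its sign turned without Floxed_Mstn replicate 3 (0.06) or WT_Mstn replicate 3 (0.03), while it was -0.20 without Floxed_Mstn replicate 1.

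Fibronectin, the large adhesive glycoprotein bound by integrins, read 9.69, 9.53, 9.06, 9.73 and 10.11 on 1426642_at in Floxed_Mstn, against 10.32, 9.93, 10.39, 9.84 and 10.30 in WT_Mstn. Floxed_Mstn replicate 5 lay among the WT_Mstn values, and the other 4 lay below all of them. The means were 9.63 ± 0.38 in Floxed_Mstn and 10.16 ± 0.25 in WT_Mstn (SD, n = 5 each). The difference was -0.53 ± 0.19 (SE, 95% interval -0.95 to -0.11), or 1.44-fold lower, with an unadjusted limma p of 0.0193 and an adjusted p of 0.535. It was -0.39 without Floxed_Mstn replicate 3, -0.65 without Floxed_Mstn replicate 5, and -0.31 without the 3 arrays on which the bacterial hybridisation controls were highest. Fn1 lies on chromosome 1, as Mstn does, with 114 protein-coding genes between them in the GRCm38.p6 gene order, and no other member lies on that chromosome.

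Fibulin 1, a calcium-binding protein of fibronectin fibrils, had a brightest probe set, 1422540_at, that read 5.72, 5.08, 3.75, 5.45 and 6.19 in Floxed_Mstn, against 5.77, 5.39, 5.46, 5.28 and 5.82 in WT_Mstn. Floxed_Mstn replicate 3 was far below every other array, and replicate 5 was the highest. The difference was -0.31 ± 0.39 (SE, 95% interval -1.17 to 0.56; limma adjusted p = 0.954), and it turned to 0.06 without Floxed_Mstn replicate 3 and was -0.55 without Floxed_Mstn replicate 5. A second kept probe set, 1439688_at, gave -0.15 (limma adjusted p = 0.974).

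Fibulin 2, which binds fibrillin and basement membrane proteins, read 6.02, 5.63, 5.28, 5.94 and 6.63 on 1423407_a_at in Floxed_Mstn, against 6.27, 6.17, 5.71, 6.03 and 6.34 in WT_Mstn. The Floxed_Mstn values spanned the whole WT_Mstn range. The difference was -0.20 ± 0.23 (SE, 95% interval -0.72 to 0.31; limma adjusted p = 0.942), and between -0.05 without Floxed_Mstn replicate 3 and -0.38 without Floxed_Mstn replicate 5.

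**Figure D2:**
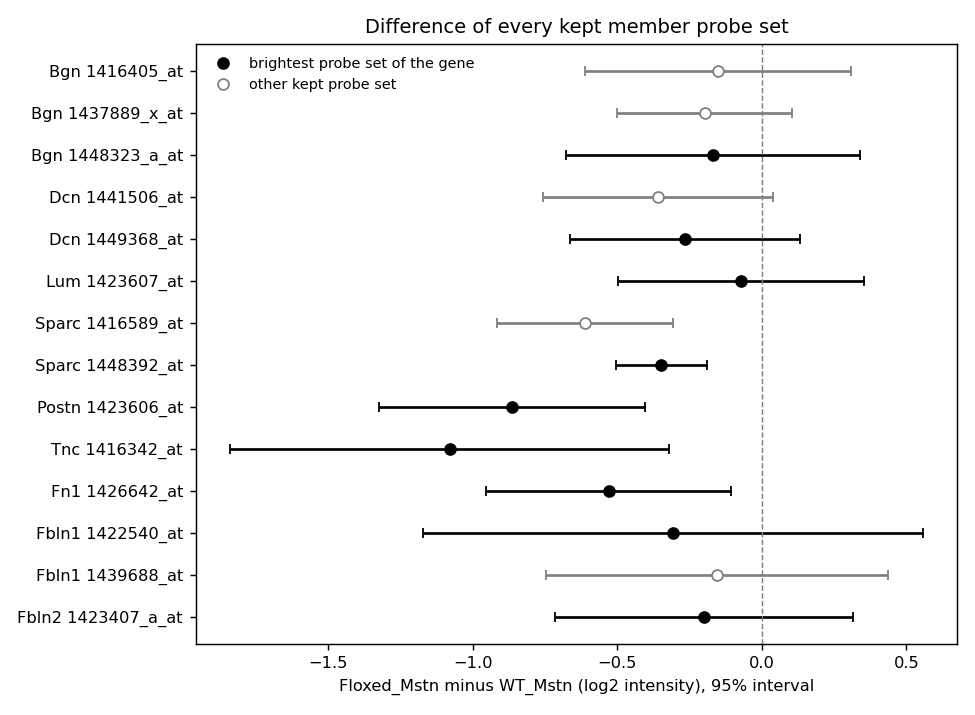
Difference between Floxed_Mstn and WT_Mstn (horizontal axis, log2 intensity) for the 14 kept probe sets of the 9 genes, with 95% intervals from limma that are not adjusted for the number of probe sets. All 14 points lie below 0, and the intervals of both Sparc probe sets and of Postn, Tnc and Fn1 do not reach 0.

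Over all 14 kept probe sets every mean was lower in Floxed_Mstn, with differences between -1.08 and -0.07, where 50.8% of all probe sets tested were lower. The groups did not overlap for 3 of them, both of Sparc and that of Postn, against 0.893% of all probe sets in this direction. At unadjusted p under 0.05 there were 5 of 14, against 4.09% of all probe sets in this direction. None of the 14 passed the adjusted threshold, which 0.0993% of all probe sets passed in either direction.

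Deviations of the genes from their group means were compared over both groups together, and no correlation was taken within a group. Single arrays could part from the pooled pattern: in WT_Mstn replicate 3 the deviation was 0.40 for Lum and -0.39 for Fbln2. For all 36 pairs of the 9 genes the deviations from group means correlated above 0 over the 10 arrays (Pearson's r from 0.135 to 0.888, median 0.593, a description over arrays that share their normalization). The share of pairs above 0 among other genes was not computed, so this pattern is not shown to be particular to the 9 genes. The closest pair was Fn1 and Fbln1, followed by Fbln1 and Fbln2 (0.873) and by Dcn and Lum (0.755). The loosest were Lum with Sparc, and Postn with Tnc (0.160). Floxed_Mstn replicate 3 was the lowest of its group for 8 of the 9 genes, and WT_Mstn replicate 4 for 6. Floxed_Mstn replicate 5 and WT_Mstn replicate 5 were the highest of their groups for 5 genes each.

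**Figure D3:**
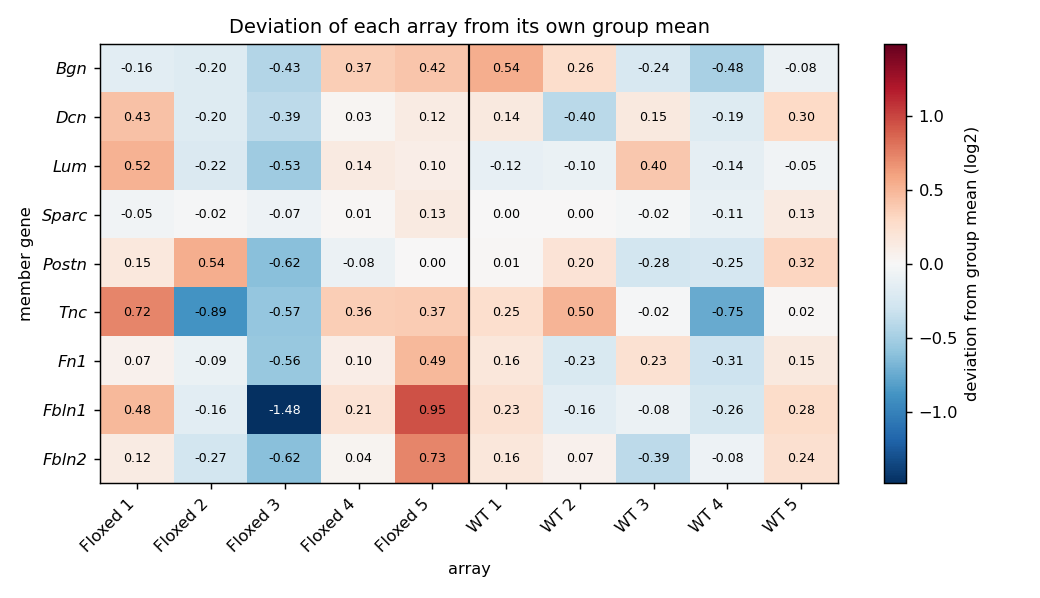
Deviation of each array (columns) from the mean of its own group, in log2 intensity, for the brightest probe set of each gene (rows); blue is below and red above the group mean, and the black line parts Floxed_Mstn (left) from WT_Mstn. Floxed_Mstn replicate 3 is blue in every row, and deviations of Sparc are the smallest.

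Floxed_Mstn replicate 3 also had the highest intensity of the bacterial hybridisation controls, RNA added to each array in fixed amount. These 7 control probe sets averaged 12.60 ± 0.26 in Floxed_Mstn and 12.54 ± 0.15 in WT_Mstn (log2, SD, n = 5 each). The 3 arrays of highest controls were Floxed_Mstn replicates 1 and 3 and WT_Mstn replicate 3. Without these 3 arrays, 7 of the 9 genes had lower means in Floxed_Mstn, with a median difference of -0.24. Without Floxed_Mstn replicate 3 alone 7 of 9 were lower, with a median of -0.17. In the first setting 3 genes and in the second 4 had an unadjusted limma p under 0.05, all lower in Floxed_Mstn. With the controls as a covariate all 9 were lower, with a median of -0.26. The difference between 3′ and 5′ probe sets, a measure of RNA integrity, was 0.45 ± 0.03 in Floxed_Mstn and 0.49 ± 0.03 in WT_Mstn for Gapdh, and 1.40 ± 0.05 in Floxed_Mstn and 1.47 ± 0.06 in WT_Mstn for beta-actin (SD, n = 5 each). Its part in the differences was not tested.

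**Figure D4:**
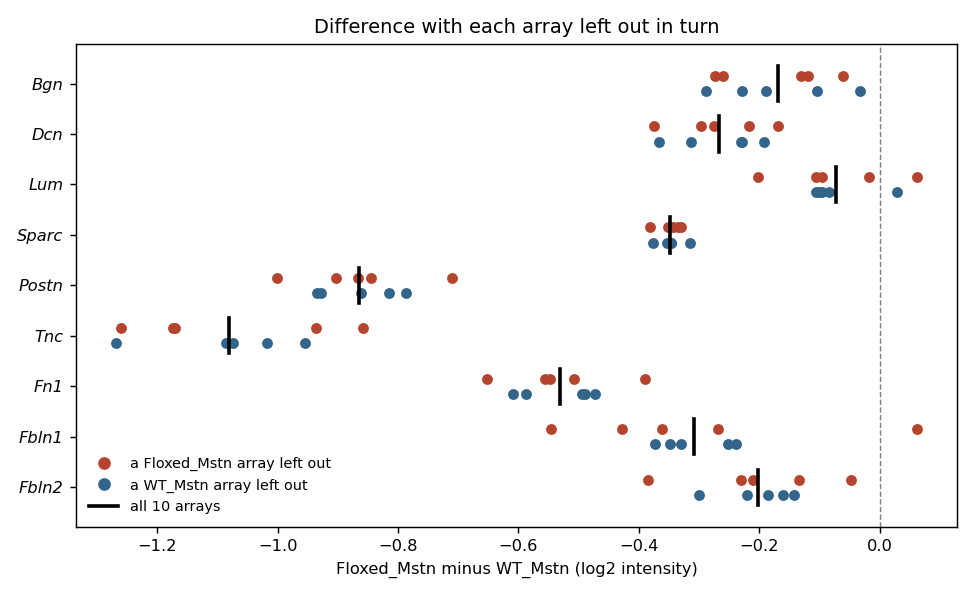
Difference between Floxed_Mstn and WT_Mstn (horizontal axis, log2 intensity, brightest probe set) with each array left out in turn. Red points leave out a Floxed_Mstn array, blue points a WT_Mstn array and the black bar uses all 10; Sparc stays between -0.38 and -0.31 and Postn between -1.001 and -0.71, while Lum and Fbln1 reach values above 0.

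Genes related to these 9 by family or binding partner were read from the same fit. Of 103 symbols listed, 92 were named on the array and 67 were measured. Of these 61 had a lower mean in Floxed_Mstn and 6 a higher one, with a median of -0.37. The threshold was passed by 2, both lower in Floxed_Mstn, against 0.0654% of all genes in this direction. An unadjusted p under 0.05 with a lower value was found for 28 of the 67, against 5.02% of all genes, and with a higher value for none, against 3.89% of all genes. The families were chosen with earlier results of these data known, so these counts are a description. How far the 67 genes vary together was not computed.

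The shares over all genes to set beside the counts by family are 51.5% for a lower mean and 5.02% for a lower value at unadjusted p under 0.05. All 7 measured members of the other small leucine-rich proteoglycans had lower means in Floxed_Mstn (median -0.52, range -1.04 to -0.29), and 4 had an unadjusted p under 0.05. The other fibulins, fibrillins and microfibril genes were lower in 12 of 12 (median -0.46), with 6 at unadjusted p under 0.05. Thrombospondins and CCN proteins were lower in 8 of 8 (median -0.39, 2 at unadjusted p under 0.05). Large proteoglycans, matrilins and vitronectin were lower in 5 of 5 (median -0.50, 4 at unadjusted p under 0.05). None of these genes passed the limma threshold. The other members of the SPARC family were lower in 3 of 4 (median -0.27, 2 at unadjusted p under 0.05). The 2 measured relatives of periostin and the tenascins gave -0.56 and -0.22, with 1 at unadjusted p under 0.05.

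Cell surface receptors of these proteins, integrins, syndecans and Cd44, were lower in 8 of 10 (median -0.25), with none at unadjusted p under 0.05. Enzymes that build the glycosaminoglycan chains of proteoglycans had a median of -0.04 (8 of 11 lower), with 1 at unadjusted p under 0.05. No gene in either set passed the limma threshold.

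The collagens to which these proteins bind were lower in 8 of 8 (median -0.59), and the groups did not overlap for 7 of them, against 1.31% of all genes in this direction. Col6a3, a collagen VI chain of the matrix around fibres, fell by 0.56 on the log2 scale (limma adjusted p = 0.0377), and Col1a2, a chain of collagen I, fell by 0.84 (0.0494). Not past the threshold were Col6a1 (-0.40, adjusted p = 0.0691), Col6a2 (-0.51, 0.0702), Col5a2 (-0.93, 0.0838) and Col1a1 (-0.71, 0.104) on their brightest probe sets. Outside the collagens the lowest p values were those of Vtn, the adhesion protein vitronectin (-0.50, adjusted p = 0.0967), and Thbs4, thrombospondin 4 of tendon and muscle (-0.81, adjusted p = 0.197).

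Of these 8 genes 5 had a dimmer kept probe set, and these did not all give the same call. Those of Col1a1 (-1.12, limma adjusted p = 0.0264) and Col1a2 (-1.15, 0.0264) passed the threshold. Those of Col6a2 (-0.60, 0.137), Vtn (-0.42, 0.430) and Col5a2 (-0.31, 0.651) did not, and for Col5a2 the groups overlapped on it although they were apart on the brightest. Without the 3 arrays of highest hybridisation controls neither Col6a3 nor Col1a2 passed. Leaving out any single array other than Floxed_Mstn replicate 5 also left none of the 67 past the threshold.

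**Figure D5:**
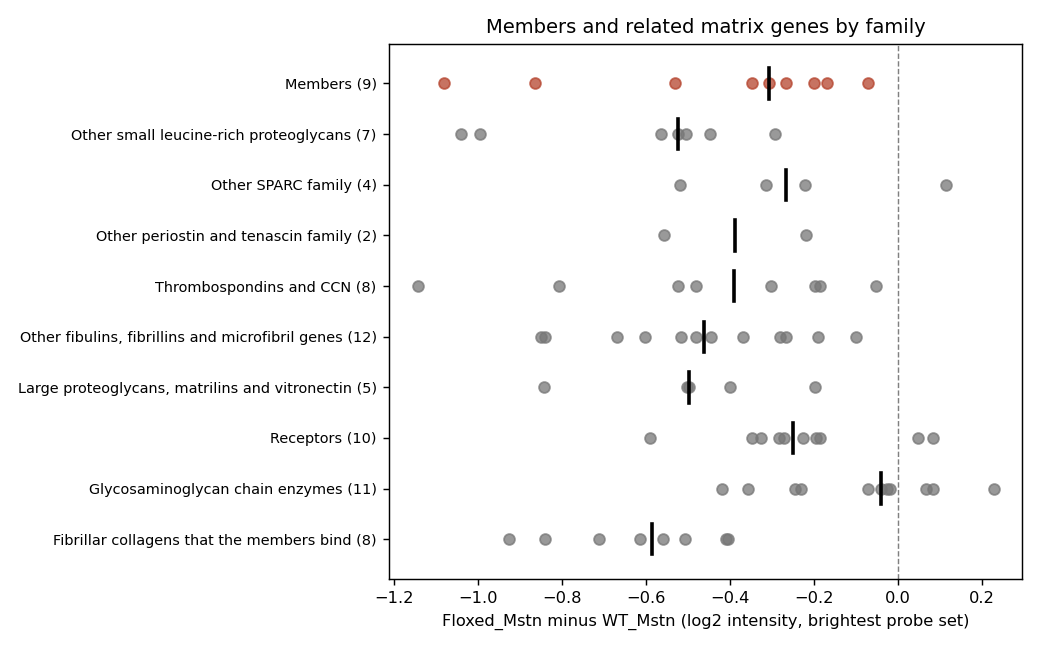
Difference between Floxed_Mstn and WT_Mstn (horizontal axis, log2 intensity, brightest probe set) for the 9 member genes (red) and 67 related matrix genes (grey) by family, with the number measured in brackets. Points are genes and black bars medians, which lie between -0.59 for the collagens and -0.04 for the chain enzymes.

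Markers of the cells that a piece of muscle can hold were read beside these values. Over all genes tested 51.5% had a lower mean. Sums given for a list are of linear intensity, so its brightest gene weighs most. Muscle fibre markers were near the top of the scale (Myh4 15.68 and Tnnt3 15.36 in Floxed_Mstn, against 15.66 and 15.31 in WT_Mstn), with 6 of 7 higher and a median difference of 0.04. The member that was lower, the oxygen-binding protein myoglobin (Mb), averaged 14.63 in Floxed_Mstn and 14.76 in WT_Mstn (limma adjusted p = 0.622). Its groups did not overlap, as for 1.31% of all genes in this direction. The summed intensity of the fibre markers was 242307 to 258429 in Floxed_Mstn and 240471 to 259468 in WT_Mstn. Fibroblast markers were lower in 7 of 7 (median -0.42), and Mfap5 among them is also in the related families. The fibroblast list had a summed intensity of 4968 to 8147 in Floxed_Mstn and 6720 to 9461 in WT_Mstn. Of these markers Dpt averaged 11.09 in Floxed_Mstn and 11.51 in WT_Mstn. Tendon markers, 3 of which are also in the related families, were lower in 7 of 7 (median -0.81), with 15102 to 29524 in Floxed_Mstn and 28445 to 34684 in WT_Mstn. Most of this sum is Fmod (14.15 in Floxed_Mstn and 14.65 in WT_Mstn).

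Smooth muscle markers were lower in 4 of 4 (median -0.45), with a summed intensity of 2317 to 3458 in Floxed_Mstn and 3430 to 4232 in WT_Mstn. Endothelial markers were lower in 5 of 6 (median -0.21), with 2509 to 2886 in Floxed_Mstn and 3002 to 3379 in WT_Mstn. The endothelial sums do not overlap, while those of smooth muscle do. How often sums of other genes do not overlap was not computed. Of the endothelial markers taken singly, only Tek had groups apart (-0.27), and Cdh5 was level at 0.005. Groups were also apart for Myh11 of the smooth muscle list (-0.49) and Scx of the tendon list (-0.22). The share of all genes with groups apart in this direction was 1.31%. Macrophage markers were lower in 6 of 6 (median -0.44), with 5838 to 10773 in Floxed_Mstn and 8343 to 12132 in WT_Mstn. Schwann cell markers were lower in 3 of 3 (median -0.38), with 4199 to 6116 in Floxed_Mstn and 4999 to 6833 in WT_Mstn. Most of this sum is Pmp22 (12.26 in Floxed_Mstn and 12.56 in WT_Mstn). Adipocyte markers had a median of -0.09 over 3, with 15440 to 20164 in Floxed_Mstn and 16900 to 19485 in WT_Mstn. Most of this sum is Fabp4 (14.01 in Floxed_Mstn and 14.11 in WT_Mstn), and Adipoq, the next brightest, averaged 9.20 and 9.38. The only measured erythroid marker, Alas2, had a mean of 4.68 in Floxed_Mstn and 4.27 in WT_Mstn. At unadjusted limma p under 0.05, 4 of 4 smooth muscle, 6 of 7 tendon and 4 of 7 fibroblast markers were lower. So were 2 of 6 endothelial, 1 of 3 Schwann and 1 of 7 fibre markers, and no macrophage or adipocyte marker. Over all genes this share was 5.02%. No marker passed the limma threshold on its brightest probe set, and the part of these cell types in the differences of the 9 genes was not tested.

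Among 10695 other genes, those whose deviations from group means were most like the mean of the 9 genes over the 10 arrays were Cox6a1, a cytochrome c oxidase subunit (Pearson's r = 0.989), Ecrg4, a secreted peptide precursor (0.970), Fbln5, an elastic fibre fibulin (0.961), Dact1, a regulator of Wnt signalling (0.957), and Rnf114, a ubiquitin ligase (0.953). Spearman's rho was 1.0, 0.927, 0.891, 0.891 and 0.927 in that order. These are descriptions, the highest of many values. The differences of these 5 genes between Floxed_Mstn and WT_Mstn were -0.19, -1.11, -0.45, -0.49 and 0.02, and none passed the limma threshold (adjusted p from 0.606 to 0.991). Named after their values were seen, the genes next in this order were Adipoq (0.951), Plekha2 (0.950), Retn (0.949), H2-Aa (0.948) and Dpp4 (0.947). Ifi27l2a (0.945), Wfdc17 (0.942), Mcpt4 (0.940), Chrdl1 (0.940) and Gpm6a (0.939) followed. Fat cells secrete Adipoq and Retn, H2-Aa is a class II histocompatibility chain of antigen-presenting cells, and Mcpt4 is a mast cell protease. No gene of the adipocyte list but Adipoq, and none of the macrophage list, was among these. The part of fat or immune cells in how the 9 genes varied between mice was not tested.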

How the data were processed

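RNA of 10 gastrocnemius muscles was measured on 1 array each. Extraction used Trizol, and labelled cDNA came from a NuGEN kit, per the labels. The deposited values are linear intensity, made with GCRMA per the submitters' processing notes, with version and settings not given in the sources used here. Arrays have no read depth, and their number limits the precision.

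The log2 of the intensity was taken with no further normalization. In the platform annotation 34958 probe sets carried 1 symbol, 932 several and 9211 were not listed; only those with 1 symbol were named. Probe sets with a mean log2 of 4 or more were kept, without 64 array controls, and the groups were compared by limma (version 3.58.1, under R 4.3.3, with lmFit and eBayes, two-sided, Benjamini-Hochberg over 21154 probe sets, threshold 0.05). The brightest kept probe set stood for a gene. Set tests were not run. The fit was tested on simulated data with independent noise for each probe set, a setting that leaves out variation shared between genes. No 2 arrays held identical values.

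The members, families and markers were chosen with earlier results of these data known. Named are all members with every kept probe set, the related genes past the threshold and the 6 next in p, at most the 2 brightest markers of a list, and the 5 genes of most similar pattern. Dimmer probe sets of the named related genes, Mb, Mfap5, Cdh5, Myh11, Scx and the further genes of similar pattern were added after their values were seen. The numbers of the replicates are not stated to pair mice, so no block was used in the main fit. Deviations of same-numbered arrays correlated between -0.51 and 0.62, which does not settle whether they share a pairing. Alternatives covered the filter, normalization, variance model, array weights, block, floor, hybridisation controls, choice of probe set and each array left out. Plots came from matplotlib (3.10.9) under Python (3.11.15).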

Additional observations from a re-analysis of the deposited data

Results flagged for a closer look

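Of 44 groups of 5 arrays tested for a single array far from the rest (14 member probe sets and 8 related genes in both groups), 1 held such an array, where chance gives about 1 in 20, or 2.2. Lum was 8.50 in WT_Mstn replicate 3 (log2 intensity), while the other WT_Mstn arrays lay between 7.96 and 8.05. Without that array the Lum difference was 0.03 (limma adjusted p = 0.976).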

How the results depend on the processing

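No member passed the limma threshold in 21 of the 22 alternatives run, and 1 passed, Sparc, with the trend and robust variance model (adjusted p = 0.0201). The median difference of the members stayed between -0.38 and -0.17 in all 22. Lum turned to 0.033 and Fbln1 to 0.0050 without the 3 arrays of highest hybridisation controls, Lum to 0.061 and Fbln1 to 0.063 without Floxed_Mstn replicate 3, and Lum to 0.028 without WT_Mstn replicate 3 (with each array left out, -0.202 to 0.061 for Lum and -0.546 to 0.063 for Fbln1); no other member changed sign. The count of 21 probe sets past the threshold over the whole array became 11 with no filter, 34 after quantile normalization, 58 with trend and robust fit, 67 with array weights, 89 with the hybridisation control covariate, 5 without the 3 arrays and 1 to 17 with each array left out. The count of 2 related genes became 4 at a filter of 6, 5 after quantile normalization, 7 with trend and robust fit, 6 with array weights, 6 with the covariate, 4 with the mean of a gene's probe sets, 0 without the 3 arrays and 0 to 3 with each array left out. With the replicate block 1 probe set, 0 members and 0 related genes passed (4 members and 28 related genes at unadjusted p under 0.05), and only 2 of 10 arrays correlated best with their own number in the other group. The causes were not tested. At a filter of 6 Tnc and Fbln1 were not tested. No measure of background per probe set was used; with values below 4 set to 4, Tnc (-1.08) and Fbln2 (-0.20) kept their differences and Fbln1 was -0.26.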

Other observations

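The 5 member probe sets under the filter were not tested. Those of Sparc (1458204_at), Tnc (1456344_at) and Fbln2 (1438375_at) had means over all arrays of 2.28, 2.45 and 2.37 (log2 intensity), close to the floor, apart from 3.28 for Tnc in WT_Mstn replicate 2. A second Fn1 probe set, 1437218_at, lay just under the filter at 3.98 and averaged 3.81 in Floxed_Mstn and 4.16 in WT_Mstn, with 5.08 in WT_Mstn replicate 3. Another Fbln1 probe set, 1451119_a_at, averaged 3.63 in Floxed_Mstn and 4.09 in WT_Mstn.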
